A study of Arabidopsis thaliana with 14 samples.

Results

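The comparison of octant with zygote embryos was taken from an RNA-seq atlas of whole embryos of Arabidopsis thaliana, ecotype Col-0, in which 2 biological replicate libraries were made at each of 7 stages. It used 4 of the 14 libraries, namely zygote 1 and 2 and octant 1 and 2, and all 25414 genes with a locus code in the deposited table of 25517 entries. No genotype, treatment or age other than the stage was given for either group, and both came from the same ecotype without a transgene named in the labels. The total RNA of each library was amplified as antisense RNA before sequencing, with a library kit that does not mark strand. All values below are deposited normalised read counts per library, scaled to a library total of 20000000, and they are not corrected for transcript length, so levels are compared between stages of the same gene only.

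The zygote is the fertilised egg cell, which elongates and divides asymmetrically into a small apical cell, the founder of most of the embryo, and a long basal cell, the founder of the suspensor. The YODA mitogen-activated protein kinase cascade is known for its role in that elongation and asymmetry. At the octant stage the apical lineage has become a ball of small cells above a filamentous suspensor, after rounds of division without overall growth, and the apical and basal lineages are marked by different WUSCHEL-related homeobox (WOX) genes. The zygote is also known as the point at which transcripts inherited from the egg cell are joined and replaced by newly made ones.

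The 4 libraries held 8880532 to 25846263 reads, and 14730 to 16617 genes reached a value of 10 in a library. Entries without a gene identifier took 19.9% to 22.5% of a zygote library and 13.1% to 14.3% of an octant library, so named genes shared a smaller total at the zygote stage. Replicates correlated across the 18744 tested genes with Pearson's r of 0.98 at the zygote stage and 0.97 at the octant stage. In whole embryos a lower value can come from fewer cells of a type or from less RNA per cell, and these cannot be told apart here.

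Markers of the labelled stages were partly present. The egg cell genes EC1.2 and EC1.3, which encode secreted proteins that act at fertilisation, were listed at 0 in all 4 libraries, and so was RKD4, a regulator of the first zygotic division. EC1.1 and EC1.4 were listed at 0 in both zygote libraries. EC1.5 of the same family stood at 1620.3 and 854 at zygote and 1167 and 1101 at octant, which overlapped. The embryo genes WOX8 (517 and 582 against 1322 and 1644, zygote against octant), ESR1, also called DORNROESCHEN (1108 and 1068 against 4137 and 2383), and ATML1 of the outer layer (2713 and 2154 against 11239 and 6792) were read in every library. WOX8, ESR1 and ATML1 rose with the deposited scaling and passed in neither direction with median-centred values. The rise also missed the threshold for WOX8 without octant 2 or zygote 1 (adjusted p = 0.071 and 0.063), for ESR1 without octant 1 (0.061), and for ATML1 without octant 1 or zygote 2 (0.081 and 0.058).

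Genes of the tissues around the embryo were also read. All 7 seed coat genes of the table were above 0 in every library. Of them 5 rose and none fell by limma (0 at an unadjusted p under 0.05, 1 by edgeR and 1 by DESeq2), and 2 rose and 1 fell with median-centred values. Over all 18744 tested genes 44.7% rose and 13.1% fell, or 21.2% and 29.4% with median-centred values. The seed coat values summed to 19834 and 15984 in the zygote libraries and 56396 and 44777 in the octant libraries. BAN, an anthocyanidin reductase of the seed coat, rose from 3369 and 1659 at zygote to 12878 and 13519 at octant (log2 change 2.48 ± 0.52 SE, adjusted p = 0.00093). AHA10, a seed coat proton pump, rose from 18.4 and 41.3 at zygote to 777 and 973 at octant (log2 change 4.78 ± 0.63 SE, adjusted p = 2.7e-05). In BAN and AHA10 both octant libraries lay above both zygote libraries, and the means at the globular stage were 304 for BAN and 7.85 for AHA10. INO lay the other way, at 672 and 849 at zygote and 546 and 646 at octant. It did not pass with the deposited scaling (adjusted p = 0.55 by limma) and fell with median-centred values (0.019). GSTF12 overlapped between stages (8171 and 6619 against 21834 and 7130, zygote against octant) and did not pass. In the list of 17 endosperm genes 5 rose and 2 fell of 13 tested, and 1 rose and 4 fell with median-centred values, and their values summed to 855 and 958 in the zygote libraries and 3355 and 3637 in the octant libraries, largely through ICE1, which acts in other tissues as well. The pollen pectin methylesterase gene VGD1 stood at 1548 and 1368 at zygote and 1486 and 1297 at octant, which overlapped, and the list of 12 synergid, pollen and sperm genes, of which 3 rose and none fell of 7 tested by limma (0 at an unadjusted p under 0.05, 0 by edgeR and 2 by DESeq2), and 0 rose and 2 fell with median-centred values (0 rises at an unadjusted p under 0.05), summed to 1958 and 1848 in the zygote libraries and 2396 and 2339.9 in the octant libraries. The defining markers MYB98 of synergids and DUO1 of the male germline were listed at 0 in all 4 libraries, and HAP2 and GEX2, which mark sperm, at 0 in both zygote libraries. The part of these tissues in the results below was not tested.

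Promoters of 5 genes named below are shown because each carries a short motif known from its gene group. They are the 250 bases before the annotated gene start, on the gene's strand, from the RefSeq annotation of build TAIR10.1, with the motif in capitals. ORC2 (AT2G37560, chr2:15758351-15758600, plus strand) and CTF18 (AT1G04730, chr1:1331170-1331419, minus strand) carry an E2F site, 9 and 33 bases before the start. WDR55 (AT2G34260, chr2:14465266-14465515, plus strand) carries a telo box 114 bases before the start. EM1 (AT3G51810, chr3:19214472-19214721, plus strand) carries an abscisic acid response element 116 bases before the start, and LEA4-5 (AT5G06760, chr5:2090431-2090680, minus strand) carries a pair of them, 67 and 53 bases before the start.
ORC2: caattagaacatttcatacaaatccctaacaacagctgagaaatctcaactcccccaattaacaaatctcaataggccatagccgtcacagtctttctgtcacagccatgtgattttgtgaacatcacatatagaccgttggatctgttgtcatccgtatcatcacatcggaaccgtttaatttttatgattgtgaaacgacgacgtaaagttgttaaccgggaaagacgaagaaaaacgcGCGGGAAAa
CTF18: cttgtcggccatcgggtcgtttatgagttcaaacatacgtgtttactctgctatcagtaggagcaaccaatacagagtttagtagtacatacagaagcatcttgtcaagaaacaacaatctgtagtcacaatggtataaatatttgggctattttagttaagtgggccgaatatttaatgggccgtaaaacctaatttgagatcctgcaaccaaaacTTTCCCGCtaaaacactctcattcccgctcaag
WDR55: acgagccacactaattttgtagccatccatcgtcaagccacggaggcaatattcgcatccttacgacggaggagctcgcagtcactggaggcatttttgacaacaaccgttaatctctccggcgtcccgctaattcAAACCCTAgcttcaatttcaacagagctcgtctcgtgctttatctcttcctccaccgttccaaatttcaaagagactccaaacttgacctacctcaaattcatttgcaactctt
EM1: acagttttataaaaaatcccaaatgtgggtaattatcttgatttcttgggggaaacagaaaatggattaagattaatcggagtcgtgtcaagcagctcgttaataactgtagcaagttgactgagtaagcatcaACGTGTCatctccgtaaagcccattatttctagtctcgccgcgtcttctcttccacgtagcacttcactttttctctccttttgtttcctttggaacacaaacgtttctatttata
LEA4-5: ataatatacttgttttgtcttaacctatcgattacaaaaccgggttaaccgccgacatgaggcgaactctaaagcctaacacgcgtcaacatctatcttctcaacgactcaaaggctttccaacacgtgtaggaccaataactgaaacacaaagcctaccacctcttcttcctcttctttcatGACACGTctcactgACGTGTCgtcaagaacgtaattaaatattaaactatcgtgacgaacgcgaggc
The E2F site was searched as TTTCCCGC or TTTGGCGC, the telo box as AAACCCTA and the abscisic acid response element as ACGTGTC or ACGTGGC. A site II element was searched as TGGGCC or TGGGCT. Both strands were read in a window from 250 bases before to 50 bases after the start of 24931 genes. Of all windows 1.22% held the E2F site, 6.18% the telo box, 7.70% the abscisic acid response element and 21.8% a site II element. Among genes that rose under both scalings (below) 30.1% held a site II element and 7.12% a telo box, against 16.8% and 3.46% of those that fell. The abscisic acid response element was in 8.41% of the former and 9.57% of the latter. A TATA box, TATAAA on the gene's strand, was in 33.8% of the former and 40.4% of the latter, against 37.6% of all windows. These matches are descriptions of the letters in the window.

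Of the 18744 genes tested with limma, 8381 rose (44.7%) and 2458 fell (13.1%) from zygote to octant at an adjusted p under 0.05 with the deposited scaling. The median log2 change over all tested genes was 0.92, with quartiles at -0.27 and 2.09, so more of the distribution lay above 0 than below it. When each library was centred on its own median, 3966 genes rose (21.2%) and 5519 fell (29.4%), and the median log2 change was -0.22. Rises were 77.3% of the calls with the deposited scaling and 41.8% with median-centred values. All 3966 genes that rose with median-centred values also rose with the deposited scaling, all 2458 that fell with the deposited scaling also fell with median-centred values, and no gene was called in opposite directions. Centring lowered the log2 change of every gene by the same amount, so this nesting was largely fixed in advance. For falls the second scaling thus removed no call and added no check. Those 3966 rises and 2458 falls held under both scalings. The shares of all tested genes are the background for the list counts below. They are 44.7% rises and 13.1% falls, or 21.2% and 29.4% with median-centred values. Unless a sentence says otherwise, "rose" and "fell" below refer to the deposited scaling, log2 changes are octant minus zygote on the log2(value + 4) scale with the standard error (SE) from a fit to all 14 libraries, and adjusted p-values are from limma over all 18744 genes.

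**Figure D1:**
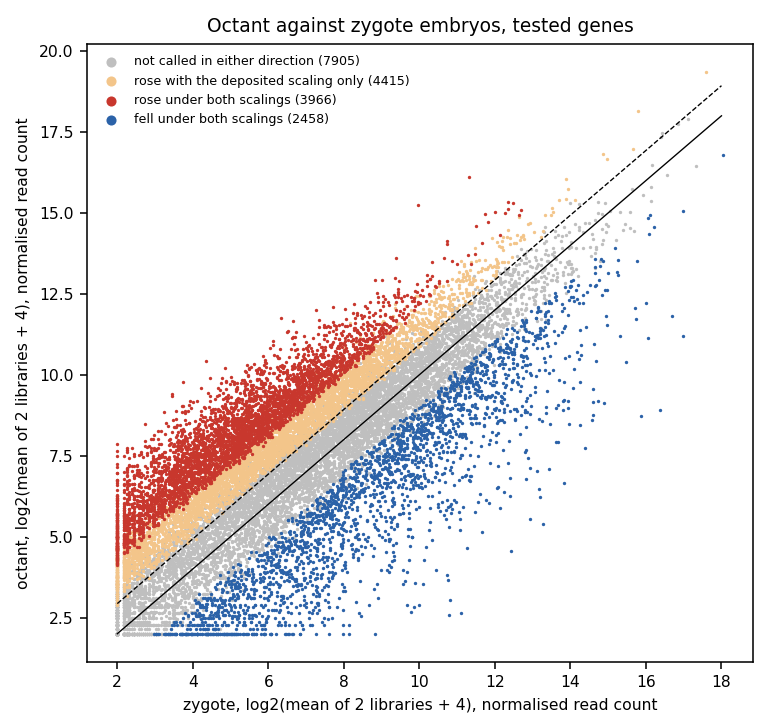
Mean normalised read count of the 2 octant libraries against that of the 2 zygote libraries, both as log2(mean + 4), for 18744 tested genes coloured by call. The solid line marks equal values and the dashed line the median difference. The 4415 genes that rose with the deposited scaling only lie along the dashed line, and the 2458 falls reach farther from it than the 3966 rises.

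Large changes were common in both directions. More than 8-fold rises numbered 1902 and more than 8-fold falls 624 among the called genes. Both octant libraries lay above both zygote libraries for 11093 genes, both zygote libraries lay above for 4101, and the stages overlapped for 3550. Lack of overlap was also a condition for most genes named below, so in them it follows from the choice. At 0 reads in both zygote libraries but not in the octant libraries were 1574 genes, of which 207 reached 10 in both octant libraries. In the opposite direction 1043 genes had 0 reads at octant only, of which 100 reached 10 in both zygote libraries.

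Among the largest falls, PIP5K1, AT2G28400, AT1G22065, AT2G05540 and OXS2 still had clear values at octant. PIP5K1 (AT1G21980, chromosome 1, 7734661 to 7738772), which encodes a phosphatidylinositol 4-phosphate 5-kinase that makes a membrane signalling lipid, fell from 76047 and 92525 at zygote to 636 and 319.8 at octant (log2 change -7.53 ± 0.81 SE, adjusted p = 6.6e-06). AT2G28400, annotated as a senescence regulator of unknown function, fell from 72304 and 47761 at zygote to 505 and 327 at octant (log2 change -7.16 ± 1.26 SE, adjusted p = 0.00025). In both genes every zygote library lay far above every octant library. AT1G22065, of unknown function, fell from 16494 and 12822 at zygote to 32.5 and 162 at octant (log2 change -7.55 ± 0.93 SE, adjusted p = 1.7e-05). AT2G05540, a glycine-rich protein gene, fell from 11421 and 6817 at zygote to 28.6 and 142 at octant (log2 change -7.00 ± 0.63 SE, adjusted p = 2.6e-06). OXS2, a zinc finger protein of stress responses, fell from 11544 and 7209 at zygote to 75.1 and 65.3 at octant (log2 change -6.95 ± 1.67 SE, adjusted p = 0.0025). None of the 5 overlapped between stages, which was a condition for naming them.

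Other falls ended close to no reads. AT3G45160, annotated as a putative membrane lipoprotein, fell from 2783 and 1573 at zygote to 0 and 4.5 at octant, where the octant values are 0 and 2 reads (adjusted p = 1.1e-06). AT4G36500, of unknown function, fell from 1686 and 1812 at zygote to 3.87 and 0 at octant (log2 change -8.29 ± 0.92 SE, adjusted p = 8.4e-06). MLP165, of the major latex protein family, fell from 931 and 827 at zygote to 4.64 and 0 at octant (log2 change -7.23 ± 0.46 SE, adjusted p = 1.1e-06). Each of these had 1 octant library at 0. AT1G08985, annotated in the AP2 and B3 transcription factor family, fell from 908 and 1116 at zygote to 2.32 and 4.5 at octant (log2 change -7.11 ± 0.62 SE, adjusted p = 2.3e-06). AT4G37080, with a leucine zipper domain of unknown function, fell from 5194 and 5827 at zygote to 16.2 and 22.5 at octant (log2 change -7.89 ± 0.73 SE, adjusted p = 2.9e-06). Of the other named falls, AT5G17350, P1R3, AT1G62422 and AT4G28703 had log2 changes from -7.79 to -6.94. FLP, a MYB factor of stomatal division, fell from 6039 and 13877 at zygote to 46.4 and 29.3 at octant (log2 change -7.80 ± 1.08 SE, adjusted p = 3.8e-05), but it overlaps another gene and the reads cannot be split between them.

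**Figure D2:**
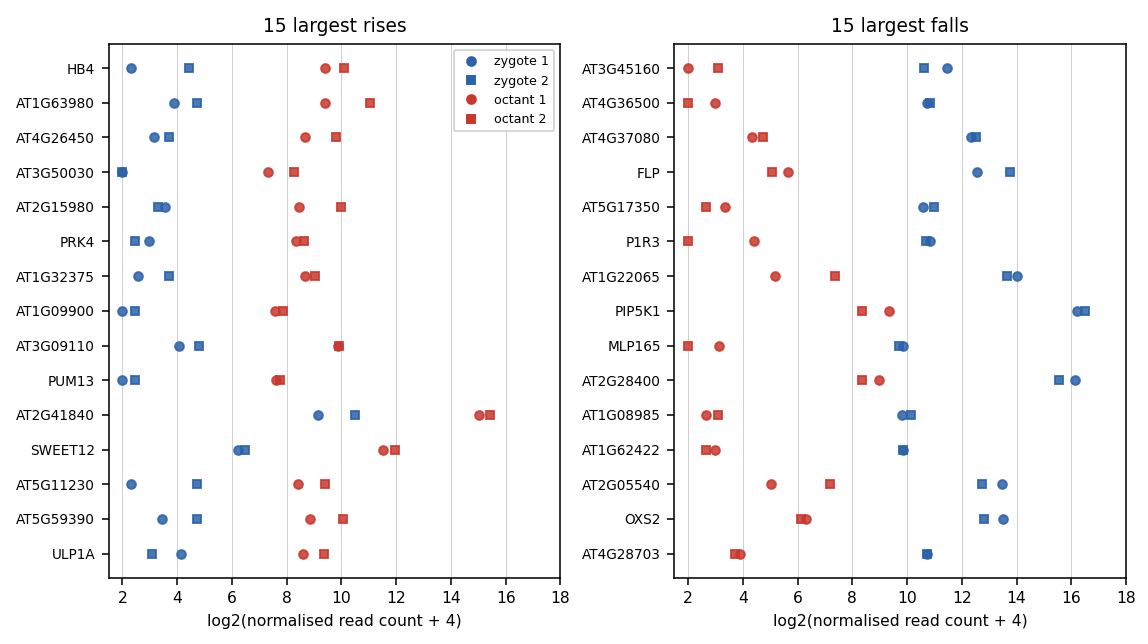
Value of each of the 4 libraries, as log2(normalised read count + 4), for the 15 largest rises and the 15 largest falls among genes called under both scalings, with circles for replicate 1 and squares for replicate 2. Zygote and octant points do not overlap in any of the 30 genes, which follows from how they were chosen, and the octant replicates lie closest for AT3G09110 among the rises.

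The largest rises are given next, several of which began at or near 0 at the zygote stage. HB4 (AT2G44910, chromosome 2, 18517656 to 18519731), a homeodomain-leucine zipper factor, rose from 0.97 and 17.7 at zygote to 665 and 1081 at octant (log2 change 6.36 ± 0.76 SE, adjusted p = 1.4e-05). SWEET12, a sucrose transporter of the plasma membrane, rose from 70.8 and 84 at zygote to 2943 and 3999.8 at octant (log2 change 5.40 ± 0.45 SE, adjusted p = 2.1e-06). AT3G50030, with armadillo and tetratricopeptide repeats, was at 0 in both zygote libraries and at 156 and 302 at octant, at least 131-fold higher against a floor of 3 reads over the zygote libraries (adjusted p = 1.5e-06). HB4, SWEET12 and AT3G50030 did not overlap between stages, and the spread within HB4 was widest at the zygote stage. ULP1A, a protease of the SUMO pathway, rose from 13.6 and 4.42 at zygote to 384 and 649 at octant (log2 change 5.37 ± 0.53 SE, adjusted p = 4.2e-06). AT5G11230, a nucleotide-sugar transporter, rose from 0.97 and 22.1 at zygote to 337 and 667 at octant (log2 change 5.39 ± 0.66 SE, adjusted p = 1.6e-05). PUM13, a Pumilio RNA-binding protein, and AT1G09900, a pentatricopeptide repeat protein, each had 1 zygote read in all and reached 193 and 212, and 186 and 229.7, at octant.

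Among the remaining large rises AT4G26450, AT2G15980, AT3G09110 and AT5G59390 had log2 changes between 5.39 and 5.81. AT2G41840, a ribosomal protein S5 family gene, rose from 557 and 1433 at zygote to 33017 and 44092 at octant (log2 change 5.41 ± 0.59 SE, adjusted p = 6.9e-06). That gene, AT1G63980, PRK4 and AT1G32375 overlap another gene, so their values are uncertain. PRK4, a receptor kinase of pollen, rose from 3.88 and 1.47 at zygote to 318 and 389.6 at octant (log2 change 5.76 ± 0.47 SE, adjusted p = 2.1e-06). The groups did not overlap for PRK4, whose later mean values did not exceed 5.2.

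Some rises were followed by low values and others by high ones. SWEET12 had mean values of 602 at globular, 255 at heart, 14.7 at torpedo, 9.23 at bent and 5.09 at mature. AT3G50030 had 19.2 at globular, 1 at heart, 0 at torpedo, 0 at bent and 0 at mature. AT2G41840 kept high values, with 32003 at globular, 15776 at heart, 38046 at torpedo, 9092 at bent and 495 at mature. Among the falls, PIP5K1 had 1099 at globular, 4097 at heart, 287 at torpedo, 296 at bent and 2.93 at mature, below its zygote mean throughout. OXS2 had 4156 at globular, 3005 at heart, 1539 at torpedo, 920.1 at bent and 15.2 at mature, so its lowest value before the mature stage was at octant. These later values are described without a test.

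**Figure D3:**
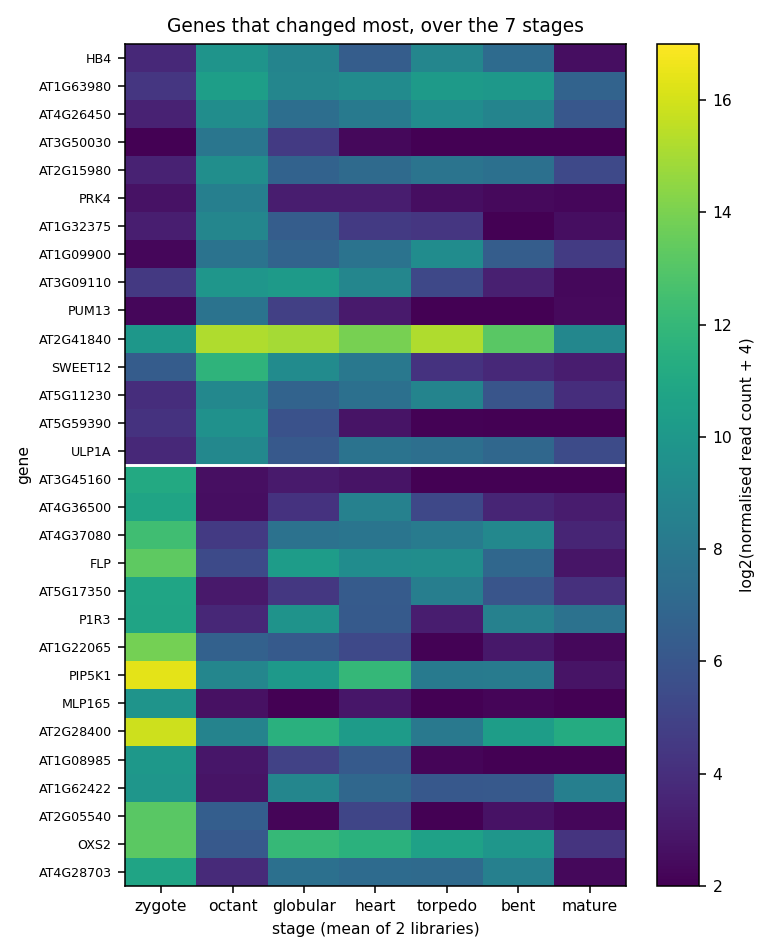
Mean of the 2 libraries at each of the 7 stages, as log2(normalised read count + 4), for the 15 largest rises (above the white line) and the 15 largest falls from zygote to octant. The columns for zygote and octant differ by construction, and rows such as PUM13, AT5G59390 and AT3G50030 return to low values after the octant stage, while AT2G41840 stays high until the bent stage.

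In the YODA pathway 5 rose and 2 fell of 15 tested with the deposited scaling, and 2 and 9 with median-centred values, and the median log2 change was -0.30 against 0.92 over all tested genes. YDA, the kinase at the head of the cascade, fell from 688 and 549 at zygote to 68.9 and 63.1 at octant (log2 change -3.15 ± 0.57 SE, adjusted p = 0.00032). MPK6, a kinase at the end of it, fell from 4608 and 4735 at zygote to 676 and 444 at octant (log2 change -3.08 ± 0.65 SE, adjusted p = 0.00097). Both zygote libraries lay well above both octant libraries in each gene, though MPK6 overlaps another gene. WRKY2, a factor that acts downstream of the cascade on WOX8, rose from 12.6 and 13.3 at zygote to 215 and 142 at octant (log2 change 3.40 ± 0.79 SE, adjusted p = 0.002). HDG12, a homeodomain factor of the same step, rose from 106 and 92.9 at zygote to 761 and 694 at octant (log2 change 2.83 ± 0.46 SE, adjusted p = 0.00013). WRKY2 and HDG12 thus rose while YDA and MPK6 fell, with both WRKY2 and HDG12 overlapping another gene. MPK3, another mitogen-activated protein kinase of the list, overlapped between stages (261 and 202 against 246 and 351, zygote against octant). It did not pass (adjusted p = 0.44 by limma), and its gene overlaps another. YDA had later means of 195 at globular, 708 at heart, 420.0 at torpedo, 244 at bent and 90.8 at mature. The list held 1 member, ZAR1, whose description names a disease resistance protein with the same symbol.

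In the WOX and early lineage list 11 rose and 1 fell of 22 tested with the deposited scaling, and 3 and 4 with median-centred values, near the background share for rises. WOX2, which marks the apical lineage, rose from 33.9 and 35.4 at zygote to 268 and 273 at octant (log2 change 2.83 ± 0.55 SE, adjusted p = 0.00054). BBM, an AP2 factor of embryonic cell fate, rose from 4.85 and 13.3 at zygote to 225 and 374 at octant (log2 change 4.57 ± 0.58 SE, adjusted p = 2e-05). MNP, also called HANABA TARANU, a zinc finger factor of the boundary between embryo and suspensor, rose from 61.1 and 114 at zygote to 758 and 914 at octant (log2 change 3.26 ± 0.60 SE, adjusted p = 0.00034). In these 3 genes both octant libraries lay well above both zygote libraries. BHLH32, also called TARGET OF MONOPTEROS 5 and the only fall of the list with the deposited scaling, fell from 407 and 473 at zygote to 44.1 and 122 at octant (log2 change -2.51 ± 0.52 SE, adjusted p = 0.00094). MP itself, the auxin response factor MONOPTEROS, whose gene overlaps another, stood at 413 and 487 at zygote and 650.0 and 986 at octant and did not pass (adjusted p = 0.31).

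For the outer cell layer 8 rose and 1 fell of 18 tested with the deposited scaling, and 5 and 6 with median-centred values, again near the background. ABCG11, a transporter of cuticle lipids, rose from 53.3 and 63.4 at zygote to 741 and 1104 at octant (log2 change 3.87 ± 0.56 SE, adjusted p = 5.9e-05), and HDG2, a homeodomain factor of the epidermis, from 14.5 and 11.8 at zygote to 165 and 254 at octant (log2 change 3.61 ± 0.66 SE, adjusted p = 0.00033). Both rose without overlap between stages, and both lie over another gene. Of the long-chain acyl-CoA synthetases of cuticle synthesis, LACS2 rose from 199 and 131 at zygote to 749.8 and 1036 at octant and LACS1 fell from 7571 and 6264 at zygote to 696 and 2297 at octant. The direction thus differed within the pair, with log2 changes of 2.42 ± 0.43 for LACS2 and -2.44 ± 0.62 for LACS1. Without octant 1 the fall of LACS1 was no longer past the threshold (adjusted p = 0.082). Of the list, 4 members have a description of another protein, and without them 7 rose and 1 fell of the 14.

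Of the genes of DNA replication 27 rose and 1 fell of 39 tested with the deposited scaling, and 16 and 2 with median-centred values, so 69.2% rose against 44.7% of all tested genes. The median log2 change was 1.81, against 0.92 over all tested genes. ORC2, a subunit of the origin recognition complex, rose from 16.5 and 26.5 at zygote to 327 and 365 at octant (log2 change 3.80 ± 0.54 SE, adjusted p = 4.9e-05). CTF18, of the clamp loader family, rose from 10.7 and 7.37 at zygote to 152 and 293 at octant (log2 change 4.06 ± 0.62 SE, adjusted p = 8.9e-05), and MCM10, which helps to start replication forks, from 13.6 and 14.7 at zygote to 129 and 435 at octant (log2 change 3.74 ± 0.70 SE, adjusted p = 0.00042). Neither stage overlapped the other in ORC2, CTF18 and MCM10, and the octant libraries differed most for MCM10. PSF1, of the complex that activates the replicative helicase, was the member that fell, from 3248 and 2171 at zygote to 881 and 905 at octant (log2 change -1.57 ± 0.35 SE, adjusted p = 0.0016). The E2F site lay in the window of 17 of the 39 genes, of which 12 rose, and 15 of the other 22 rose.

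Regulators of cell cycle entry were mixed, as 8 rose and 3 fell of 15 tested with the deposited scaling, and 4 and 4 with median-centred values. DEL1, an atypical E2F factor whose gene overlaps another, rose from 1.94 and 5.9 at zygote to 248 and 151 at octant (log2 change 4.69 ± 0.49 SE, adjusted p = 5.9e-06), and DPA, a dimerisation partner of E2F factors, from 17.5 and 22.1 at zygote to 231 and 311 at octant (log2 change 3.52 ± 0.41 SE, adjusted p = 1.1e-05). Inhibitors of cyclin-dependent kinases made up all 3 falls. ICK1 fell from 708 and 1188 at zygote to 53.4 and 76.6 at octant (log2 change -3.76 ± 0.55 SE, adjusted p = 5.9e-05). ICK3 fell from 592 and 513 at zygote to 139 and 133 at octant (log2 change -1.99 ± 0.38), and KRP6 from 735 and 538 at zygote to 236 and 277 at octant (log2 change -1.29 ± 0.43), where the call was lost without octant 1 (adjusted p = 0.088) or zygote 1 (0.13). The inhibitor ICK6 rose with the deposited scaling only, and KRP2 and ICK5 passed in neither direction with the deposited scaling.

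For mitosis 26 rose and 1 fell of 39 tested with the deposited scaling, and 16 and 2 with median-centred values, with a median log2 change of 1.81. CENP-C, a protein of the centromere, rose from 84.4 and 116 at zygote to 1880.3 and 1592 at octant (log2 change 4.07 ± 0.54 SE, adjusted p = 3e-05). APC8, a subunit of the anaphase-promoting complex, rose from 5.82 and 10.3 at zygote to 189 and 249.99 at octant (log2 change 4.22 ± 0.46 SE, adjusted p = 7.3e-06), and MAD1, of the spindle checkpoint, from 13.6 and 14.7 at zygote to 223 and 234.2 at octant (log2 change 3.68 ± 0.44 SE, adjusted p = 1.4e-05), both of which overlap another gene. The stages were far apart in CENP-C, APC8 and MAD1. CKS1, which binds cyclin-dependent kinases, was the member that fell, from 943 and 1091 at zygote to 405 and 592 at octant (log2 change -1.04 ± 0.34 SE, adjusted p = 0.016), a call lost without octant 1 (adjusted p = 0.12) or zygote 2 (0.083). Of the list, 3 members have a description of another protein, and without them 24 rose and 1 fell of the 36. For cytokinesis and microtubules 18 rose and none fell of 29 tested by limma (0 at an unadjusted p under 0.05, 3 by edgeR and 4 by DESeq2), and 9 and 4 with median-centred values. MAP65-5, which bundles microtubules, rose from 42.7 and 53.1 at zygote to 381 and 491 at octant (log2 change 3.08 ± 0.46 SE, adjusted p = 6.6e-05), and EDE1, which binds spindle microtubules, from 2.91 and 4.42 at zygote to 75.8 and 131 at octant (log2 change 3.76 ± 0.58 SE, adjusted p = 9.4e-05).

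Among genes of histone modification 29 rose and 2 fell of 44 tested with the deposited scaling, and 24 and 8 with median-centred values, so 65.9% rose against 44.7% of all tested genes. The median log2 change was 2.29. HUB1, which attaches ubiquitin to histone H2B, rose from 0.97 and 8.85 at zygote to 185 and 268 at octant (log2 change 4.83 ± 0.46 SE, adjusted p = 3.4e-06). LDL1, a histone demethylase, rose from 9.7 and 10.3 at zygote to 276 and 426 at octant (log2 change 4.63 ± 0.45 SE, adjusted p = 3.8e-06), and WDR5a, of the histone H3 lysine 4 methylation complex, from 9.7 and 14.7 at zygote to 294 and 338 at octant (log2 change 4.32 ± 0.41 SE, adjusted p = 3.1e-06). Each gene had low zygote values and octant values many times higher. The acetyltransferase genes HAC1 (1898 and 1109 against 491 and 331, zygote against octant) and HAF01 (2136 and 5628 against 542 and 1090.0) fell, though HAF01 overlaps another gene and HAC1 lost its call without octant 1, octant 2 or zygote 1 (adjusted p = 0.054, 0.15 and 0.17). Of the histone chaperones and remodellers, ASF1B, which hands over histones H3 and H4, rose from 10.7 and 23.6 at zygote to 224 and 295 at octant (log2 change 3.70 ± 0.51 SE, adjusted p = 3.7e-05). In that list 17 rose and 1 fell of 26 tested with the deposited scaling, and 6 and 3 with median-centred values. CHR1, the remodeller DDM1 that maintains DNA methylation, was its only fall with the deposited scaling (392 and 448 against 53.4 and 67.6, zygote against octant, log2 change -2.72 ± 0.57 SE, adjusted p = 0.00098).

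Of the histone genes themselves 18 rose and 5 fell of 48 tested with the deposited scaling, and 5 and 16 with median-centred values. The list, taken by description, held 6 members of another kind, among them SET domain methyltransferases, and without them 15 rose and 4 fell of the 42. HIS1-3, a linker histone known from drought stress, fell from 1889 and 1436 at zygote to 58.8 and 47.3 at octant (log2 change -4.86 ± 0.57 SE, adjusted p = 1.2e-05). Their transcripts were short, with a list median of 885 bases, and nearly identical copies can share reads.

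In small RNA pathways 16 rose and none fell of 21 tested by limma (0 at an unadjusted p under 0.05, 1 by edgeR and 4 by DESeq2), and 10 and 4 with median-centred values, and the median log2 change was 2.17. AGO4, the Argonaute of RNA-directed DNA methylation, rose from 168 and 205 at zygote to 1362 and 1759 at octant (log2 change 3.03 ± 0.41 SE, adjusted p = 3.2e-05). AGO10, which sequesters miR165 and miR166, rose from 86.3 and 92.9 at zygote to 724 and 779 at octant (log2 change 3.01 ± 0.39 SE, adjusted p = 2.7e-05), and AGO7, of trans-acting small RNAs, from 9.7 and 17.7 at zygote to 144 and 131 at octant (log2 change 3.03 ± 0.47 SE, adjusted p = 9.9e-05). AGO6 had 3 zygote reads in all and stood at 104 and 76.6 at octant. These Argonaute genes did not overlap between stages. Among RNA polymerases 11 rose and 3 fell of 28 tested with the deposited scaling, and 8 and 9 with median-centred values. NRPD1B, the largest subunit of polymerase V of the same methylation pathway, rose from 5.82 and 13.3 at zygote to 183 and 286 at octant (log2 change 4.16 ± 0.55 SE, adjusted p = 2.7e-05), and NRPC2, of polymerase III, from 97 and 67.8 at zygote to 495 and 770.2 at octant (log2 change 2.87 ± 0.44 SE, adjusted p = 8.2e-05). The list of Mediator and general transcription factors had 9 tested members. Of these, 5 rose and none fell by limma (0 at an unadjusted p under 0.05, 2 by edgeR and 3 by DESeq2), against 3 and 2 with median-centred values. MED8 rose from 15.5 and 19.2 at zygote to 94.4 and 178 at octant (log2 change 2.65 ± 0.47 SE, adjusted p = 0.00028).

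For the spliceosome 35 rose and 4 fell of 69 tested with the deposited scaling, and 19 and 15 with median-centred values. Rises were 50.7% of the list against 44.7% of all tested genes, or 27.5% against 21.2% with median-centred values. Falls were 5.80% against 13.1%, or 21.7% against 29.4%. AT3G18790, an ISY1-like splicing factor, rose from 357 and 534 at zygote to 6885 and 8585 at octant (log2 change 4.13 ± 0.38 SE, adjusted p = 2.8e-06), and PRP40C from 4.85 and 4.42 at zygote to 152 and 194 at octant (log2 change 4.34 ± 0.49 SE, adjusted p = 9.7e-06). For RNA decay 16 rose and 3 fell of 25 tested with the deposited scaling, and 7 and 4 with median-centred values. Rises were thus 64.0% of that list, or 28.0% with median-centred values. RRP41L, an exosome-related exoribonuclease, rose from 8.73 and 7.37 at zygote to 219.8 and 336 at octant (log2 change 4.52 ± 0.54 SE, adjusted p = 1.3e-05). The deadenylase genes CAF1a and CAF1b went the other way. CAF1a fell from 84332 and 45929 at zygote to 5351 and 4112 at octant (log2 change -3.73 ± 0.61 SE, adjusted p = 0.00014), and CAF1b from 5818 and 3787 at zygote to 381 and 354 at octant (log2 change -3.66 ± 0.50 SE, adjusted p = 3.7e-05). UPF3, of nonsense-mediated decay, was the other fall, from 3760.4 and 5425 at zygote to 566 and 736 at octant (log2 change -2.80 ± 0.35 SE, adjusted p = 1.9e-05).

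For translation factors 50 rose and 3 fell of 75 tested with the deposited scaling, and 25 and 14 with median-centred values. Rises were 66.7% of the list against 44.7% of all tested genes, or 33.3% against 21.2% with median-centred values. EIF4B2, which aids the helicase of initiation, rose from 51.4 and 106 at zygote to 1373 and 1063 at octant (log2 change 3.96 ± 0.54 SE, adjusted p = 3.4e-05). EMB2785, an elongation factor family gene, rose from 45.6 and 67.8 at zygote to 673 and 806 at octant (log2 change 3.63 ± 0.50 SE, adjusted p = 3.9e-05). Both genes had octant values several times higher than any zygote value. In ribosome biogenesis 14 rose and none fell of 21 tested by limma (1 at an unadjusted p under 0.05, 1 by edgeR and 1 by DESeq2), and 6 and 2 with median-centred values, where NOF1, a nucleolar factor of ribosomal RNA, rose from 22.3 and 20.6 at zygote to 457 and 525 at octant (log2 change 4.28 ± 0.35 SE, adjusted p = 2.1e-06). WDR55, whose promoter is shown above, rose from 11.6 and 19.2 at zygote to 163 and 194 at octant (log2 change 3.26 ± 0.45 SE, adjusted p = 3.7e-05). FIB2, a fibrillarin that methylates ribosomal RNA, rose from 1448 and 1921 at zygote to 17175 and 19053 at octant (log2 change 3.44 ± 0.53 SE, adjusted p = 8.8e-05) and overlaps another gene. Of 213 ribosomal protein genes taken by description, organellar ones included, 103 rose and 19 fell, with 32 and 55 with median-centred values. These shares were near the background, which makes no allowance for transcript length (below). The telo box was in 52.4% and 38.0% of the windows of ribosome biogenesis and ribosomal protein genes, against 6.18% of all windows. Of the ribosomal protein genes 36 of 81 with a telo box rose and 67 of 132 without.

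For nuclear transport 10 rose and none fell of 18 tested by limma (0 at an unadjusted p under 0.05, 5 by edgeR and 5 by DESeq2), and 2 and 5 with median-centred values. Rises were 55.6% of the list against 44.7% of all tested genes, or 11.1% against 21.2% with median-centred values. GLE1, which exports RNA through the nuclear pore, rose from 231 and 269.8 at zygote to 1468 and 1585 at octant (adjusted p = 0.00031). For the proteasome 24 rose and 2 fell of 39 tested with the deposited scaling, and 12 and 5 with median-centred values, with 4 members of the COP9 signalosome or another complex, without which 20 rose and 2 fell of the 35. AT4G24820, a lid subunit, rose from 563 and 843 at zygote to 8958 and 6412 at octant (log2 change 3.45 ± 0.39 SE, adjusted p = 9.6e-06), though it overlaps another gene. For the COP9 signalosome and the cullin ubiquitin ligases that it regulates 14 rose and 1 fell of 20 tested with the deposited scaling, and 9 and 4 with median-centred values, with a median log2 change of 2.24. CSN5B, its catalytic subunit, rose from 17.5 and 11.8 at zygote to 249 and 257 at octant (log2 change 3.80 ± 0.46 SE, adjusted p = 1.6e-05), and DET1, a light signalling partner, from 8.73 and 16.2 at zygote to 189.6 and 158 at octant (log2 change 3.46 ± 0.40 SE, adjusted p = 9.9e-06). CAND1, which exchanges the substrate receptors of cullins, was the only fall with the deposited scaling (2757 and 2417 against 383 and 423, zygote against octant, log2 change -2.67 ± 0.38 SE, adjusted p = 4.8e-05). For autophagy 16 rose and 5 fell of 31 tested with the deposited scaling, and 5 and 8 with median-centred values. These rises were 51.6% of the list, or 16.1% with median-centred values, near the background. VPS34, the lipid kinase that starts autophagosomes, rose from 22.3 and 22.1 at zygote to 303 and 347 at octant (log2 change 3.65 ± 0.47 SE, adjusted p = 2.5e-05).

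In glycolysis and the tricarboxylic acid cycle 31 rose and 2 fell of 42 tested with the deposited scaling, and 18 and 6 with median-centred values, so 73.8% rose against 44.7% of all tested genes. The list had a median log2 change of 1.99. IDH-V, a subunit of mitochondrial isocitrate dehydrogenase, rose from 82.4 and 103 at zygote to 1503 and 2058 at octant (log2 change 4.19 ± 0.53 SE, adjusted p = 1.9e-05), and mtLPD1, a subunit of several mitochondrial dehydrogenases, from 177 and 232 at zygote to 1727 and 2385 at octant (adjusted p = 5.4e-06). Neither overlapped between stages. Of subunits and assembly factors of the respiratory chain 16 rose and 14 fell of 60 tested with the deposited scaling, and 6 and 29 with median-centred values, with a median of 0.26. AT2G02050, a subunit of complex I, fell from 38303 and 16309.7 at zygote to 553 and 604 at octant (log2 change -5.42 ± 0.64 SE, adjusted p = 1.2e-05). AT5G67490, a succinate dehydrogenase assembly factor, fell from 18067 and 21055 at zygote to 758 and 991 at octant (log2 change -4.49 ± 0.34 SE, adjusted p = 1.5e-06), while COX15, an assembly factor of complex IV, rose from 23.3 and 64.9 at zygote to 713 and 453 at octant (log2 change 3.72 ± 0.53 SE, adjusted p = 4.7e-05). AT5G67490 and COX15 overlap another gene. Of the genes of pentatricopeptide repeat proteins, which process organellar RNA, 170 rose and 7 fell of 256 tested with the deposited scaling, and 100 and 20 with median-centred values, so 66.4% rose. AT4G02820 rose from 19.4 and 28 at zygote to 611 and 775 at octant (log2 change 4.66 ± 0.35 SE, adjusted p = 1.5e-06).

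In the cell wall 27 rose and 17 fell of 84 tested with the deposited scaling, and 11 and 32 with median-centred values. FLA17, a fasciclin-like arabinogalactan protein of the cell surface, fell from 973 and 817 at zygote to 10.1 and 45 at octant (log2 change -5.09 ± 0.81 SE, adjusted p = 0.00011), and FLA13 of the same family from 254 and 380.4 at zygote to 9.29 and 31.5 at octant (log2 change -3.86 ± 0.55 SE, adjusted p = 4.8e-05). Both fell without overlap. For vesicle fusion and exocytosis 13 rose and 5 fell of 30 tested with the deposited scaling, and 6 and 12 with median-centred values. VAMP721, a SNARE of secretion at the cell plate, rose from 545 and 684 at zygote to 3628 and 3441 at octant (log2 change 2.52 ± 0.34 SE, adjusted p = 3.1e-05), and EXO70H8, an exocyst subunit, fell from 2613 and 2695 at zygote to 444 and 354 at octant (log2 change -2.73 ± 0.50 SE, adjusted p = 0.00034). Of the secreted signalling peptides 3 rose and 16 fell of 41 tested with the deposited scaling, and 0 and 22 with median-centred values (0 at an unadjusted p under 0.05), so 39.0% fell against 13.1% of all tested genes. PSK3, a phytosulfokine precursor, fell from 678 and 609 at zygote to 34 and 85.6 at octant (log2 change -3.47 ± 0.54 SE, adjusted p = 0.0001), and RALF23, a peptide of the receptor kinase FERONIA, from 5376 and 3857 at zygote to 489 and 680.1 at octant (log2 change -2.97 ± 0.60 SE, adjusted p = 0.00071). The peptide list held 3 cysteine proteinases with the symbol CEP, and without them 3 rose and 14 fell of the 38.

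Among auxin genes 25 rose and 10 fell of 65 tested with the deposited scaling, and 15 and 23 with median-centred values. Rises were 38.5% and falls 15.4%, against 44.7% and 13.1% of all tested genes. With median-centred values the shares were 23.1% and 35.4%, against 21.2% and 29.4%. YUC3, an auxin synthesis enzyme, rose from 11.6 and 25.1 at zygote to 337 and 315 at octant (log2 change 3.95 ± 0.56 SE, adjusted p = 4.7e-05). PIN3, an auxin efflux carrier, fell from 6037 and 4704 to 387 and 541 (log2 change -3.53 ± 0.81 SE, adjusted p = 0.0018). IAA1, an auxin-induced repressor, fell from 657 and 994 at zygote to 62.7 and 54.1 at octant (log2 change -3.71 ± 0.67 SE, adjusted p = 0.00032). The stages did not overlap in YUC3, PIN3 or IAA1. The auxin list held 10 members whose description names another protein, tetratricopeptide repeat proteins among them, and without them 19 rose and 9 fell of the 55. For cytokinin 14 rose and 2 fell of 32 tested with the deposited scaling, and 4 and 6 with median-centred values. Their shares were 43.8% and 6.25%, or 12.5% and 18.8% with median-centred values. CKX3, a cytokinin-degrading oxidase, fell from 141 and 106 at zygote to 3.1 and 4.5 at octant (log2 change -4.02 ± 0.60 SE, adjusted p = 7e-05). WOL, a cytokinin receptor, reached 82.8 and 67.6 at octant after 4 zygote reads in all. IPT9, which makes cytokinin from transfer RNA, rose from 14.5 and 17.7 at zygote to 213 and 259 at octant (log2 change 3.57 ± 0.42 SE, adjusted p = 1.2e-05).

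Across brassinosteroid, gibberellin, jasmonate and ethylene genes 23 rose and 15 fell of 67 tested with the deposited scaling, and 6 and 26 with median-centred values. Rises were 34.3% and falls 22.4%, against 44.7% and 13.1% of all tested genes. With median-centred values the shares were 8.96% and 38.8%, against 21.2% and 29.4%. Of the lipoxygenases that start jasmonate synthesis, LOX3 fell from 6512 and 6380.3 at zygote to 303 and 259 at octant (log2 change -4.50 ± 0.59 SE, adjusted p = 2.6e-05), and LOX4 from 1934 and 2412 at zygote to 51.1 and 33.8 at octant (log2 change -5.57 ± 0.64 SE, adjusted p = 1e-05). LOX6, of the same step, rose from 107 and 147 at zygote to 339 and 385 at octant (adjusted p = 0.026), and LOX2, at 80.5 and 53.1 against 90.5 and 115 (zygote against octant), did not pass (adjusted p = 0.31). AOC2, a later enzyme of that route, fell from 94.1 and 82.6 at zygote to 0 and 0 at octant, at least 51.1-fold lower against a floor of 3 reads over the octant libraries (adjusted p = 1e-05). Of the other genes for that enzyme, AOC1 fell from 72.7 and 51.6 at zygote to 0 and 0 at octant (adjusted p = 2.4e-06). AOC4 fell from 1916 and 1955 at zygote to 980 and 676 at octant (adjusted p = 0.037). AOC3 (445 and 307 against 109 and 185, zygote against octant) did not pass (adjusted p = 0.1). AOS, the enzyme between the lipoxygenases and AOC2, overlapped between stages (2545 and 4289 against 3002 and 2529) and did not pass (adjusted p = 0.6). OPR3, which acts after AOC2, rose from 357 and 492 at zygote to 939 and 1056 at octant (log2 change 1.24 ± 0.40 SE, adjusted p = 0.015). The rises of LOX6 and OPR3 did not pass with median-centred values, where AOS fell. The rise of LOX6 did not pass without any 1 of the 4 libraries (adjusted p from 0.053 to 0.15), and that of OPR3 did not pass without zygote replicate 1 (adjusted p = 0.12) or octant replicate 2 (adjusted p = 0.079). BRI1, the brassinosteroid receptor, fell from 15093 and 11460.0 at zygote to 874 and 930.1 at octant (log2 change -3.86 ± 0.48 SE, adjusted p = 1.9e-05). MYC3, a jasmonate-response factor, went the other way and rose from 4.85 and 8.85 at zygote to 162 and 426 at octant (log2 change 4.65 ± 0.71 SE, adjusted p = 8.5e-05). MYC2, whose gene overlaps another, had higher values and fell from 11674 and 10249 at zygote to 3291 and 6223 at octant (log2 change -1.27 ± 0.45 SE, adjusted p = 0.026).

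Transcription factors were counted by family, against 44.7% rises and 13.1% falls of all tested genes, or 21.2% and 29.4% with median-centred values. In the homeodomain family 19 rose and 21 fell of 73 tested with the deposited scaling, and 9 and 37 with median-centred values, with a median log2 change of -0.23. HB21 was at 0 in both zygote libraries and at 98.3 and 108 at octant, at least 58.8-fold higher against the floor of 3 reads (adjusted p = 9.5e-06). HB23 fell from 324 and 329 at zygote to 17 and 13.5 at octant (log2 change -4.11 ± 0.52 SE, adjusted p = 2e-05). KNAT1, a meristem factor, fell from 15358 and 153 at zygote to 31.7 and 54.1 at octant (log2 change -5.09 ± 1.28 SE, adjusted p = 0.0034), and zygote 1 lay far above zygote 2, so the size of the fall rests on zygote 1. Its call was lost in the fit of the zygote and octant libraries alone (adjusted p = 0.13). In the WRKY family 6 rose and 10 fell of 37 tested with the deposited scaling, and 4 and 19 with median-centred values. WRKY46, a defence and hormone response factor, fell from 6096 and 4562 at zygote to 151 and 333 at octant (log2 change -4.53 ± 0.74 SE, adjusted p = 0.00015). WRKY17 of the same family fell from 1955 and 1725 at zygote to 37.9 and 83.3 at octant (log2 change -4.93 ± 0.92 SE, adjusted p = 0.00041). In the NAC family 11 rose and 11 fell of 42 tested with the deposited scaling, and 3 and 19 with median-centred values, and ANAC087 fell from 921 and 859.6 at zygote to 13.2 and 42.8 at octant (log2 change -4.98 ± 0.58 SE, adjusted p = 1.2e-05).

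For AP2 and ERF factors 18 rose and 15 fell of 58 tested with the deposited scaling, and 10 and 28 with median-centred values. Rises were 31.0% and falls 25.9%, against 44.7% and 13.1% of all tested genes. With median-centred values the shares were 17.2% and 48.3%, against 21.2% and 29.4%. CBF2, a cold response factor, fell from 1225 and 1256 at zygote to 43.3 and 36 at octant (log2 change -4.84 ± 0.42 SE, adjusted p = 2.3e-06), and ERF11, an ethylene response repressor, from 252 and 242 at zygote to 0.774 and 11.3 at octant (log2 change -4.88 ± 0.84 SE, adjusted p = 0.00021). RAP2.7 rose from 6.79 and 10.3 at zygote to 221 and 268 at octant (log2 change 4.31 ± 0.47 SE, adjusted p = 7.4e-06). For bHLH factors 8 rose and 4 fell of 21 tested with the deposited scaling, and 4 and 9 with median-centred values, with a median log2 change of 0.89. For MYB factors 16 rose and 14 fell of 67 tested with the deposited scaling, and 5 and 30 with median-centred values, where MYB3, a repressor of phenylpropanoid genes, fell from 41607 and 11127 at zygote to 1798 and 962 at octant (log2 change -4.03 ± 0.77 SE, adjusted p = 0.00046). For bZIP factors 11 rose and 9 fell of 30 tested with the deposited scaling, and 4 and 16 with median-centred values, and bZIP23, a zinc-deficiency factor, rose from 25.2 and 44.2 at zygote to 354 and 403 at octant (log2 change 3.35 ± 0.37 SE, adjusted p = 8.6e-06), and overlaps another gene. In the MADS family 10 rose and 1 fell of 31 tested with the deposited scaling, and 1 and 11 with median-centred values, where AGL15 of the early embryo rose from 13.6 and 8.85 at zygote to 81.2 and 94.6 at octant (log2 change 2.61 ± 0.58 SE, adjusted p = 0.0014). AG, the floral organ gene AGAMOUS that also acts in the ovule, fell from 2623 and 2336 at zygote to 409 and 1462 at octant (log2 change -1.67 ± 0.68 SE, adjusted p = 0.048), and its call was lost under 8 alternatives, among them without octant 1 (adjusted p = 0.44), zygote 1 (0.17) or zygote 2 (0.12). For heat stress factors and chaperones 8 rose and 7 fell of 31 tested with the deposited scaling, and 2 and 12 with median-centred values, where HSP60, a mitochondrial chaperonin, rose from 852 and 1301 at zygote to 6333 and 6268 at octant (log2 change 2.58 ± 0.43 SE, adjusted p = 0.00016) and HSP17.6A, a small heat shock protein, fell from 146 and 257 at zygote to 8.51 and 13.5 at octant (log2 change -3.74 ± 0.52 SE, adjusted p = 3.9e-05).

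Transcription factor families that include microRNA targets were followed because these RNAs restrain early differentiation. Several families were taken whole by symbol, so the counts are not restricted to known targets. In this list 19 rose and 7 fell of 43 tested with the deposited scaling, and 12 and 13 with median-centred values. PHB, a target of miR165 and miR166 that patterns the upper side of organs, rose from 59.2 and 54.6 at zygote to 863 and 1031 at octant (log2 change 3.96 ± 0.39 SE, adjusted p = 3.8e-06). NF-YA3, a target of miR169, rose from 13.6 and 33.9 at zygote to 479 and 432 at octant (log2 change 4.15 ± 0.48 SE, adjusted p = 1.1e-05), and GRF1, a growth factor targeted by miR396, from 174 and 179.9 at zygote to 1454 and 1151 at octant (log2 change 2.84 ± 0.39 SE, adjusted p = 3.9e-05). All 3 had octant values above the zygote values without overlap, and GRF1 overlaps another gene. Of the list, 6 members have a description of another protein, and without them 17 rose and 5 fell of the 37. In the full list rises were 44.2% and falls 16.3%, near the 44.7% and 13.1% of all tested genes.

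Late seed genes, which encode storage, oil body and desiccation proteins, gave the highest share of falls among the lists with tested members, as 2 rose and 16 fell of 25 tested with the deposited scaling, and 0 and 21 with median-centred values (0 at an unadjusted p under 0.05), and 64.0% fell against 13.1% of all tested genes. The median log2 change was -1.51 against 0.92 over all tested genes. Of the list, 4 members have a description of another protein, and both rises were among them. Without these 4, 0 rose and 16 fell of the 21 by limma, with no rise at an unadjusted p under 0.05, by edgeR or by DESeq2, and 20 fell with median-centred values. EM1, a late embryogenesis abundant protein, fell from 741 and 1137 at zygote to 0 and 15.8 at octant (log2 change -6.70 ± 0.71 SE, adjusted p = 6.4e-06), and LEA4-5 of the same class from 199.8 and 311 at zygote to 15.5 and 11.3 at octant (log2 change -3.88 ± 0.71 SE, adjusted p = 0.00034). Their stages lay far apart, with EM1 at 0 in octant 1. OLEO1, an oil body protein whose gene overlaps another, fell from 2255 and 2117 at zygote to 128 and 232 at octant, and CRU3, a storage globulin, from 358 and 568 at zygote to 109 and 108 at octant. Mean values at the mature stage were 126552 for OLEO1 and 259254 for CRU3. The abscisic acid response element was in 52.0% of the windows of the list, against 7.70% of all windows. Of the 13 genes with the element 11 fell, and of the 12 without it 5 fell and 2 rose.

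Of genes used elsewhere as references for normalisation 6 rose and 1 fell of 12 tested with the deposited scaling, and 4 and 4 with median-centred values. PP2AA3 rose from 27.2 and 45.7 at zygote to 222 and 315 at octant (log2 change 2.77 ± 0.38 SE, adjusted p = 3.6e-05), and ACT8 from 236 and 245 at zygote to 1996 and 935 at octant (log2 change 2.49 ± 0.40 SE, adjusted p = 0.00013). ACT7 (26393 and 30403 against 12908 and 10657, zygote against octant) and UBQ10 (27628 and 30411 against 18998 and 14330.2) lay lower at octant in both libraries without passing with the deposited scaling (adjusted p = 0.085 and 0.14).

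**Figure D4:**
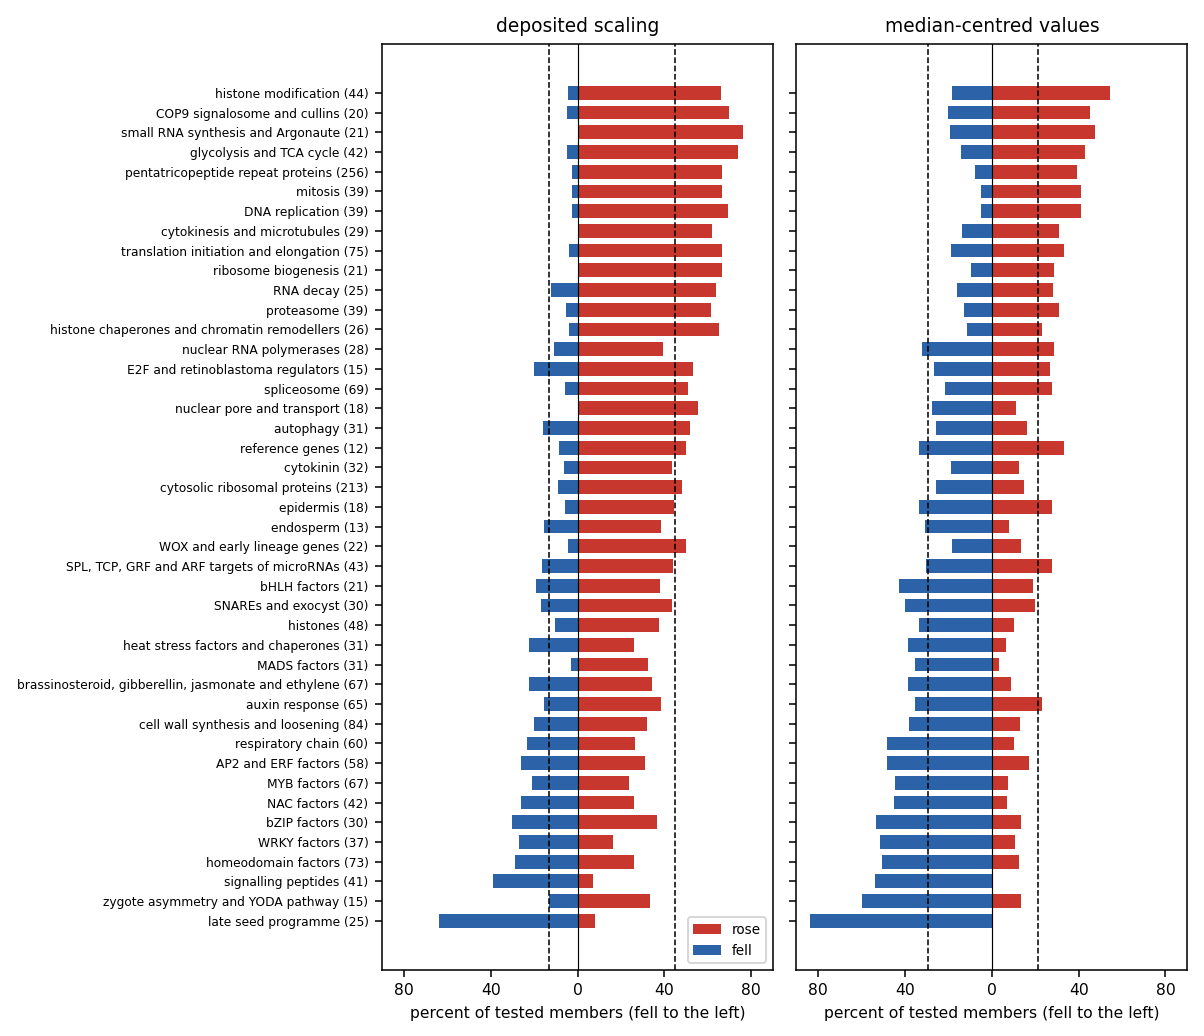
Percent of the tested members of each gene list (number in brackets) that rose (right, red) or fell (left, blue), with the deposited scaling and with median-centred values. Dashed lines mark the share of all tested genes, 44.7% and 13.1% in the left panel and 21.2% and 29.4% in the right one, and the late seed list extends farthest to the left in both panels.

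The change went with transcript length. The median log2 change was 0.02 among the shortest of 5 equal classes of genes (117 to 1099 bases) and 0.91, 1.17, 1.27 and 1.26 in the longer classes. In the shortest class 24.3% of the genes rose and 22.3% fell, and in the longest 51.9% rose and 8.58% fell. Signalling peptides, with a median transcript of 866 bases, had a median log2 change -1.15 relative to all genes and -0.25 relative to the medians of their length classes. The late seed list lay at -1.96 and the YODA list at -1.16 relative to their length classes. Histone modification lay at 1.11, DNA replication at 0.91 and the respiratory chain at -0.13. Ribosomal protein genes, with a median transcript of 1009 bases, lay at 0.03 relative to all genes and at 0.64 relative to their length classes. Histones lay at -0.28 and 0.50. The part of length in the single-gene calls was not tested.

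**Figure D5:**
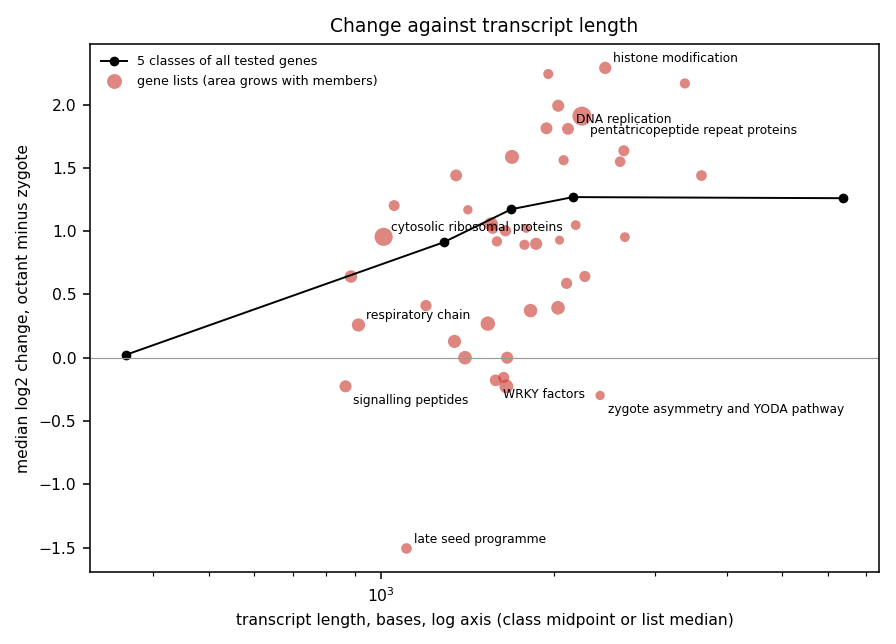
Median log2 change, octant minus zygote, against transcript length in bases on a log axis, for 5 classes of all tested genes (black line, at the middle of each class) and for gene lists of at least 12 tested members (red, at the list's median length). The black line climbs from 0.02 to 1.26, and the late seed list lies below it and histone modification above it.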

How the data were processed

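The deposited table gives normalised read counts for 25517 entries in 14 libraries, 2 biological replicates at each of 7 embryo stages. Total RNA was amplified as antisense RNA before library preparation, per the labels' protocols. CASAVA, Trimmomatic, FastQC, STAR, HTSeq and DESeq2, without versions, and build TAIR10 are listed per the submitters' processing notes, which give no role or order. The values are a depth-scaled signal: each deposited column sums to 20000000, and dividing by the smallest step gave whole reads for 100% of values within 0.001, so depth was recovered (8880532 to 25846263 reads in the zygote and octant libraries). The 103 entries without a gene identifier were left out of all tests but stay in the authors' total. 4315 of the 25414 named genes were at 0 in all 4 libraries compared.

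Genes with a value of at least 10 in at least 2 libraries (18744, with 6670 not tested) were fitted with limma 3.58.1 in R 4.3.3 on log2(value + 4), with 1 coefficient per stage and the 14 libraries together, a trend in the prior variance and Benjamini-Hochberg adjustment at 0.05. The stages share 7 residual degrees of freedom. An exact permutation test of 2 against 2 libraries cannot go below p = 0.333. A fold change on the log2(value + 4) scale understates the change of low genes. The procedure was run on simulated data in which zygote and octant were made equal apart from a set of changed genes. That simulation held no shift over all genes, so it does not bear on the choice of scaling. The authors' counts were assumed unstranded, so genes that overlap another gene (31.0% of tested genes) are reported as uncertain. Alternatives were other scalings, filters and pseudocounts, edgeR 4.0.16 and DESeq2 1.42.0 on the recovered reads, array weights, the zygote and octant libraries alone, the replicate number as a block, and each of the 4 libraries left out. Symbols, descriptions, transcript lengths and sequences came from the RefSeq annotation of TAIR10.1, which 24932 named genes match.

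The genes named are the 15 largest rises and falls past the threshold under both scalings, without overlap between stages and with a mean of at least 200 in the higher stage, and in each list up to 4 such genes with a mean of at least 50. Members of the lists for other tissues, stages and reference genes are given whether or not they pass. The lineage markers WOX8, ESR1, ATML1 and MP and the list members MPK3, PSF1, CKS1, ICK3, ICK5, ICK6, KRP2, KRP6, HAC1, HAF01, CAND1, UPF3, PIN3, BRI1, LOX2, LOX6, AOS, AOC1, AOC3, AOC4, OPR3, MYC2, OLEO1 and CRU3 fall outside the rule and were named after their values were seen. The comparison, lists and members were chosen with earlier results of these data known. In 19 lists, 57 members matched by symbol have a description of another protein, which was found after values were seen, so counts without them are descriptions. Lists of organellar genes and microRNA precursors had no member in the table. Other lists were in it only in part. Of the genes matched, the table held 39 of 58 for DNA replication, 39 of 64 for mitosis and 15 of 29 for cell cycle entry. It held 9 of 26 Mediator and general transcription factors and 7 of 19 seed coat genes, but 278 of 281 pentatricopeptide repeat genes.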

Additional observations from a re-analysis of the deposited data

Results flagged for a closer look

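The entries of the deposited table that name no gene, which no comparison used, held a larger share of the zygote libraries than of the octant libraries. They took 22.5% of zygote 1, 19.9% of zygote 2, 13.1% of octant 1 and 14.3% of octant 2. Neither the labels nor the table say what these entries are. When named genes alone were scaled to equal library totals, 7927 rose and 2678 fell, with a median log2 change of 0.83. The deposited scaling gave 8381 rises, 2458 falls and a median of 0.92. The cause of the upward shift of named genes was not tested.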

How the results depend on the processing

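Direction over all genes depended on the scaling. Against 8381 rises and 2458 falls, median-centred values gave 3966 and 5519 with a median log2 change of -0.22, and quantile normalization gave 4934 and 4060 with a median of 0.13. Upper-quartile scaling gave 5878 rises, 3854 falls and a median of 0.33. On the recovered reads edgeR gave 4754 rises, 4381 falls and a median of 0.13, and DESeq2 gave 3806, 4994 and -0.052. Leaving out each of the 4 libraries gave 8251 to 9055 calls in all, against 10839, with 6485 to 7276 rises, 1766 to 1948 falls and medians of 0.86 to 1.01. The fit with the replicate block gave 8364 rises and 2490 falls. Deviations from the stage mean of same-numbered zygote and octant libraries correlated across genes with r = 0.05. That value is low, but with 2 libraries a stage it cannot exclude a shared replicate effect. Nor can it tell whether the libraries were collected in pairs. Of the 213 named genes that were called, 196 kept their call in every alternative that tested them, 17 lost it in at least 1 and none reversed. The naming rule already required a call under both scalings and no overlap between stages. For the genes it named, kept calls thus follow in part from the choice. MYC2, AOC1 and AOC4 are not among the 213. The filter at 50 did not test AT3G56790, AT3G12915 and BIP3, which leaves 16 of the 17 alternatives for each. Octant 2 and zygote 2 were the shallower libraries, with 8880532 and 13563668 reads, where 1 read is worth 2.25 and 1.47. The part of the amplification in the shift with transcript length was not tested.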

Other observations

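Transcripts known from wounding, jasmonate, cold and defence responses were examined in a list of 58 genes that was drawn up after their values were seen, so the counts describe the choice and support nothing. Of 55 tested members 6 rose and 29 fell, with a median log2 change of -1.35, and with median-centred values 2 rose and 41 fell. Their values summed to 220685 and 164596 in the zygote libraries, and to 22815 and 25613 in the octant libraries. BAP1, a defence suppressor that binds membranes, fell from 57722 and 32519 at zygote to 908 and 1763 at octant (log2 change -5.09 ± 0.62 SE, adjusted p = 1.5e-05 by limma). PROPEP1, the precursor of a wound peptide, fell from 13584 and 25425 at zygote to 371 and 318 at octant (log2 change -5.74 ± 0.72 SE, adjusted p = 2e-05 by limma). The zygote libraries lay above the octant libraries in both genes. The drought factor DREB2A rose from 21.3 and 66.4 at zygote to 289 and 676 at octant, a call lost without octant 2 or zygote 1 (adjusted p by limma 0.068 and 0.075), and JAZ10, a jasmonate repressor, from 4.85 and 0 at zygote to 29.4 and 29.3 at octant. The mean sums were 10676 at globular, 20757 at heart, 14649 at torpedo, 7336 at bent and 11901 at mature, all below the zygote sums. Handling of the ovules before collection was not recorded per library in the labels, and its part was not tested.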
